A study of Homo sapiens with 4 samples.

Results

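The collagens and lysyl oxidases are the genes that build and cross-link the collagen part of the extracellular matrix. They were chosen by symbol: every gene named COL, a number, A and a number, together with LOX and LOXL1 to LOXL4. The array named 48 such genes (43 collagens and 5 lysyl oxidases) with 79 probes. A member was tested if 2 or more of the 4 arrays gave 1 of its probes a detection p below 0.01, which left 30 members (26 collagens and 4 lysyl oxidases) of 10377 genes tested and 20046 genes named on the array.

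The samples were RUES2 cells, a human embryonic stem cell line, that had been differentiated toward heart for 5 days, to the stage labelled as cardiovascular progenitors, and their RNA was hybridised to 4 Illumina bead arrays. The undifferentiated cells had received lentivirus with a short hairpin RNA (shRNA) and had been selected with puromycin, in both groups alike. The TMEM88 shRNA group held 1 array with hairpin 691 and 1 with hairpin 94, aimed at different stretches of TMEM88, whose membrane protein is known as a modulator of the Wnt pathway. The control group held 2 arrays with a control shRNA (controls 1 and 2). Each array is a bulk RNA sample, in which fewer cells of a type and less RNA per cell cannot be told apart. The 2 TMEM88 shRNA samples carry different hairpins, so their spread also holds any difference between the hairpins. The labels do not say whether the 2 control samples were separate cultures, so the control spread may be technical. The p-values reflect only how far these samples spread.

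Collagens are triple helices of 3 chains, and the genes fall into families by what the helices form. Fibrillar collagens (types I, II, III, V and XI) make the fibrils of connective tissue, type IV makes the sheet of the basement membrane on which epithelia and vessels rest, and type VI makes beaded filaments. FACIT collagens sit on the surface of fibrils or at tissue borders, and transmembrane collagens are cell surface proteins. Lysyl oxidases act outside the cell: they oxidise lysines in collagen and elastin, and the products link neighbouring molecules. In the developing heart, collagen lies in the matrix between myocardium and endocardium and later in the valves and the fibrous skeleton.

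The 4 arrays had 16516 probes detected with hairpin 691, 16240 with hairpin 94, and 15618 and 15300 in controls 1 and 2. TMEM88 itself, on a log2 scale after normalization, stood at 7.88 with hairpin 691 and 10.34 with hairpin 94, against 11.04 and 11.49 in the controls, so hairpin 94 left a level much closer to the controls. Over both hairpins the TMEM88 difference was -2.15 ± 0.71 (SE, n = 2 per group) and did not pass the test (limma adjusted p = 0.187), while hairpin 691 alone gave -3.38 (limma adjusted p = 0.0146) and hairpin 94 alone -0.92 (limma adjusted p = 0.591). Of 11 cardiovascular progenitor markers 10 were tested, with 6 at an unadjusted limma p under 0.05, 1 higher and 5 lower. MESP1, a factor of early cardiac mesoderm, rose (3.68 ± 0.42, limma adjusted p = 0.012), and HAND2, MEF2C and PDGFRA fell. GATA6 (-1.29 ± 0.32, limma adjusted p = 0.106) and GATA4 (-1.17 ± 0.44, limma adjusted p = 0.232) were lower without passing. NKX2-5 (0.97 ± 0.42, limma adjusted p = 0.282) and KDR (1.20 ± 0.69, limma adjusted p = 0.418) were higher without passing. ISL1 and HAND1 were detected on every array without passing, and TBX5 was detected on none. HAND2 differed by -3.74 ± 0.25 (limma adjusted p = 0.00406), and MEF2C, undetected with both TMEM88 hairpins, was at least 3.14-fold lower there (limma adjusted p = 0.00571). Pluripotency genes were still present: 5 of 6 were tested, all with positive differences and none passing (2 with an unadjusted limma p under 0.05), POU5F1 and LIN28A were detected on every array and NANOG on none. The POU5F1 difference was 0.32 without control 1 and 2.39 without control 2. A probe that was not detected does not show that its gene was silent. With 4 arrays, precision is limited throughout.

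Of the 30 tested members, 5 passed the limma test at an adjusted p of 0.05 over all genes. LOX, COL13A1 and COL23A1 rose with TMEM88 shRNA, and COL22A1 and COL8A1 fell. Over all 10377 genes tested 1.98% passed, 0.954% higher and 1.02% lower. At an unadjusted p under 0.05 there were 16 members, 8 higher and 8 lower, where 18.3% of all genes lay. Groups did not overlap in 19 members, against 50.2% of all genes, and 11 members had a log2 difference of at least 1 in size, against 7.16% of all genes. The members split into 17 positive and 13 negative differences with a median of 0.12, beside a median of 0.0012 over all genes tested. These counts changed when a control was left out, but that fit holds 1 control array, assumed to vary like the TMEM88 shRNA arrays. Results given here as without control 1 or without control 2 carry that limit.

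**Figure D1:**
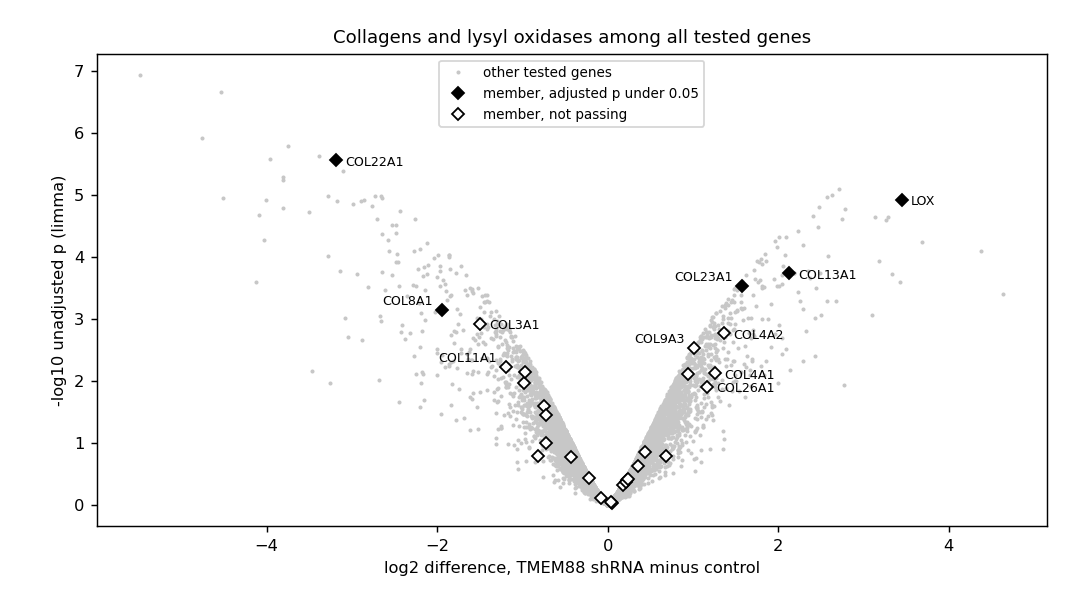
Each point is a tested gene, with the log2 difference of TMEM88 shRNA minus control on the horizontal axis and -log10 of the unadjusted limma p on the vertical axis. Filled diamonds are the 5 members that passed the adjusted test and open diamonds the other 25: COL22A1 and COL8A1 lie on the left and LOX, COL13A1 and COL23A1 on the right.

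Detection differed between groups for some of these genes. Of the 30 tested members, 23 were detected on all 4 arrays, and 2 of the 5 that passed (COL13A1 and COL23A1) were among them. Over all genes detected on all 4 arrays, 1.72% passed. LOX and COL9A3 were detected on neither control array, and COL3A1, COL8A1 and COL22A1 on neither TMEM88 shRNA array. For these 5 members the dim group has only a bound, so their fold is given as at least the stated value, computed from the bright group's mean over the lowest level that counted as detected on each dim array, or over the dim probe's own level where that was higher. Such genes entered the test through 1 group alone, so their share of the calls says nothing about collagens as a family.

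**Figure D2:**
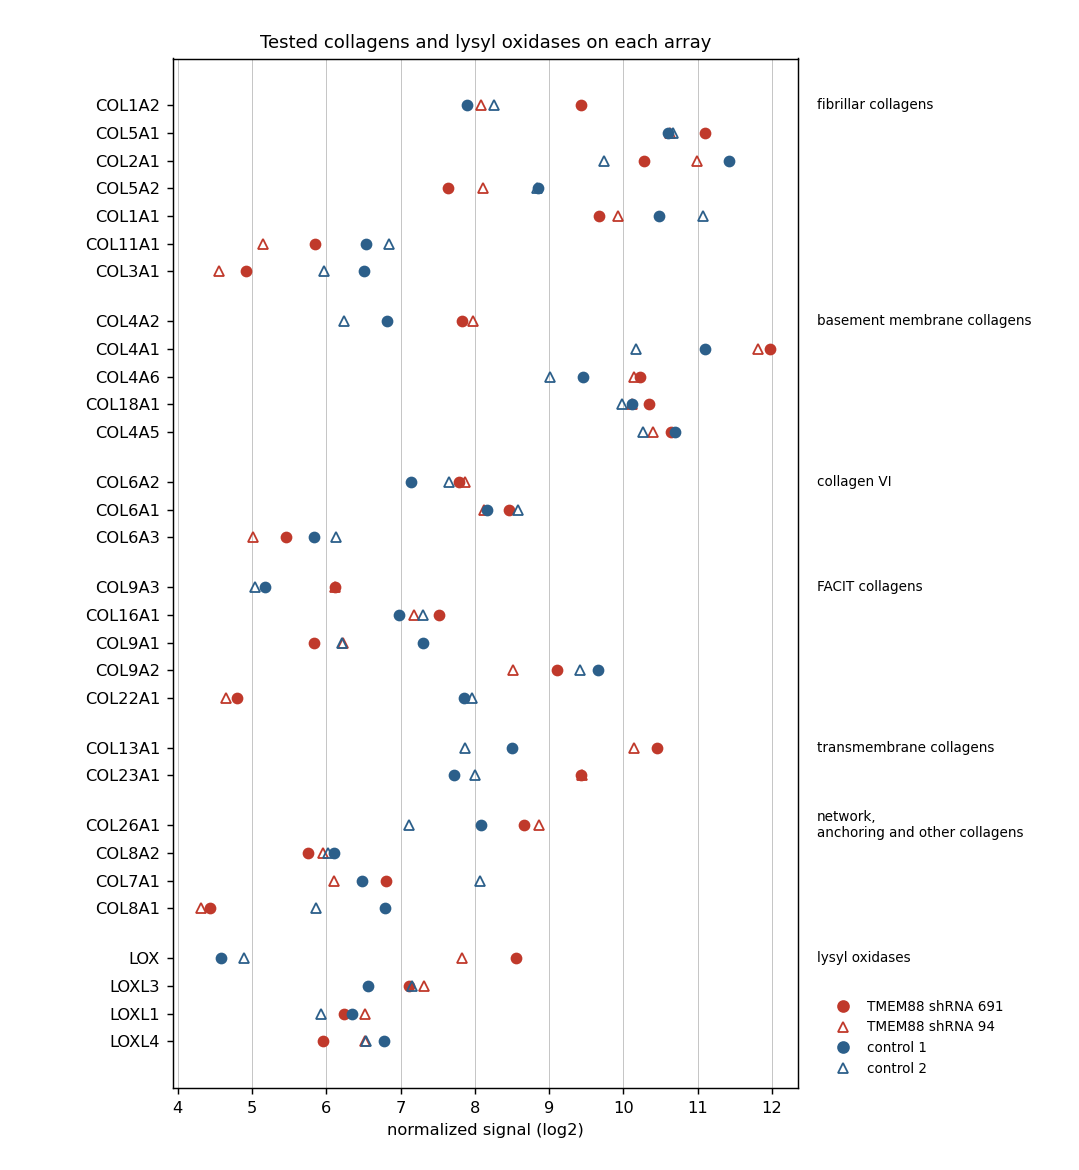
Normalized log2 level of the 30 tested members on each array, with the TMEM88 shRNA arrays (hairpins 691 and 94) above the control arrays in the legend and one row for each gene, grouped by class. The LOX and COL22A1 points of the 2 groups lie far apart, without overlap, while for COL2A1 and COL4A5 they overlap. Levels of different genes come from different probes and are not comparable with each other.

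Promoter sequence shows how the members that moved, and the type IV pair, are set in the genome. RefSeq windows of 300 bases, from 250 bases before to 50 after the start site, were kept for 35 of the 48 members on build GRCh38.p14. Windows on 1 chromosome were left out before this count. COL8A1, COL3A1, COL1A1 and COL1A2 had none. Those of LOX, COL13A1 and COL23A1 are shown because these genes rose, and those of COL4A1 and COL4A2 because both genes start within 1 shared stretch. For each, 6 short motifs were searched on both strands: the TATA box core TATAA, the box named CCAAT, the GC box GGGCGG, the hypoxia response element core ACGTG, the core CTTTGA bound by TCF and LEF factors of the Wnt pathway, and the SMAD element CAGAC.

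The LOX window (chr5:122078210-122078509, minus strand, the outermost of 3 RefSeq start windows) has its ACGTG matches in capitals, as ACGTG or, on the opposite strand, CACGT. They lie 185, 116, 98 and 42 bases before the start site, and 21.4% of 35116 RefSeq windows hold at least 1. The other two LOX windows, around start sites farther inside the gene, hold 1 match each.
LOX: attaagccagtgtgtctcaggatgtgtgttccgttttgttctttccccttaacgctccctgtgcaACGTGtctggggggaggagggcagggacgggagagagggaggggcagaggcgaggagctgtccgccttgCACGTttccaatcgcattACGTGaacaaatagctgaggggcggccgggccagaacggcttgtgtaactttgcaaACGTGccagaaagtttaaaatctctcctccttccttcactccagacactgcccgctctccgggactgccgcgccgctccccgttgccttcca
The COL13A1 window (chr10:69801656-69801955, plus strand) has its CTTTGA match in capitals, read on the opposite strand, 213 bases before the start site. That motif is in 12.9% of windows.
COL13A1: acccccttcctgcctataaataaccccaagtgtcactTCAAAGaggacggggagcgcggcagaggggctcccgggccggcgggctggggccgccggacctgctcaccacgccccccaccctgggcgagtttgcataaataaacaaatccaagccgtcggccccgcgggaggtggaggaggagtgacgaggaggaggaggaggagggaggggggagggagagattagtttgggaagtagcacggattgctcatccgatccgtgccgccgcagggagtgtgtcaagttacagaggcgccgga
In the COL23A1 window (chr5:178590344-178590643, minus strand) the capitals mark 2 GGGCGG matches, 195 and 89 bases before the start site, the second on the opposite strand. GGGCGG is in 45% of windows.
COL23A1: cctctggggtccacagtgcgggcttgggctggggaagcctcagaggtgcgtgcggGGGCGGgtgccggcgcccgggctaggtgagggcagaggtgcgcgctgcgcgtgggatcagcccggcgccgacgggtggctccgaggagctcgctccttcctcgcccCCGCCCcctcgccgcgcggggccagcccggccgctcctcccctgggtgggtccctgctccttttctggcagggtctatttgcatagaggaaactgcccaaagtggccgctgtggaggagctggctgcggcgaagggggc

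COL4A1 and COL4A2 lie head to head on chromosome 13 and are transcribed away from each other from start sites 127 bases apart. The windows of COL4A1 (chr13:110307108-110307407, minus strand) and COL4A2 (chr13:110307034-110307333, plus strand) therefore share 226 bases, shown in capitals. Each is written 5′ to 3′ on its own gene's strand, so the shared stretch of one is the reverse complement of the other.
COL4A1: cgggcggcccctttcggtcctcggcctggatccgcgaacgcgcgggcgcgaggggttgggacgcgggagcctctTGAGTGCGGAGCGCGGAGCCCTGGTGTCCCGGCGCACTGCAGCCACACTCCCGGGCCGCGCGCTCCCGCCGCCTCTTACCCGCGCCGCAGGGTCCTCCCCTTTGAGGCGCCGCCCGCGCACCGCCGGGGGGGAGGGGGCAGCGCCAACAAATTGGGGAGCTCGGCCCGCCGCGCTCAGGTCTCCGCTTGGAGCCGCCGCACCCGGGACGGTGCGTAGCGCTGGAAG
COL4A2: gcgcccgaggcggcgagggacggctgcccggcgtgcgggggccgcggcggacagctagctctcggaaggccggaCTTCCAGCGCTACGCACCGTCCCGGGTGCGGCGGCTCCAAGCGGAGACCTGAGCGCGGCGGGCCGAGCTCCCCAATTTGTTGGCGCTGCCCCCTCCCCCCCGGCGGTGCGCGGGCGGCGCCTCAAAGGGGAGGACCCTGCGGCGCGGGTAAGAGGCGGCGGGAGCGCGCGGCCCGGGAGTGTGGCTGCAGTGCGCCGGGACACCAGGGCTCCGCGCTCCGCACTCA
The shared stretch holds a CTTTGA match, 77 bases before the COL4A1 start and 55 before the COL4A2 start, a CCAAT match, 26 and 105 bases before these starts, and a GGGCGG match, 67 and 65 bases before them. CCAAT is in 34.6% of windows. A further GGGCGG match lies 249 bases before the COL4A1 start, and the LOX window holds 1 CCAAT match and 1 GGGCGG match, 109 and 79 bases before its start. Across the 5 windows the remaining motifs were found as follows: TATAA (20.4% of windows) matched in COL13A1 alone, and CAGAC (45.3%) in LOX alone, at 2 places. A match is only a description of these letters, and 1 pair of matches overlapped, an ACGTG and a CAGAC match in LOX.

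LOX, the first described of the lysyl oxidases, rose with TMEM88 shRNA. Its scanner signals were 502.1 with hairpin 691 and 314.2 with hairpin 94, against 121.9 and 134.5 in the controls. On the normalized log2 scale LOX stood at 8.55 and 7.83 with TMEM88 shRNA, against 4.58 and 4.90 in the controls. Both TMEM88 shRNA arrays were far above both controls, where LOX was not detected. LOX was at least 6.55-fold higher with TMEM88 shRNA (limma adjusted p = 0.00571).

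The other lysyl oxidases did not pass the test. LOXL3 had log2 levels of 7.12 and 7.32 with TMEM88 shRNA, against 6.56 and 7.16 in the controls, a difference of 0.36 ± 0.28 (SE, n = 2 per group; limma adjusted p = 0.551). LOXL4 stood at 5.95 and 6.52, against 6.78 and 6.53 in the controls (-0.43 ± 0.28, limma adjusted p = 0.478). LOXL1, which acts on elastin, had 6.24 and 6.52 with TMEM88 shRNA and 6.35 and 5.92 in the controls. All 3 were detected in both groups, with differences of 0.24 to 0.36 in LOXL1 and LOXL3 and a negative one in LOXL4. LOXL2 had no detected probe and was not tested.

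ACGTG is the core of the element bound by hypoxia inducible factors, of which LOX is a known target, so the hypoxia response genes were read from the same fit. None of the 11 tested of 13 on the array passed, 7 had an unadjusted limma p under 0.05, all higher, and 10 of 11 differences were positive, with a median of 0.67. The brightest were ENO1 and LDHA, both enzymes of glycolysis. ENO1 had 14.09 and 14.21 with TMEM88 shRNA, against 14.01 and 14.17 in the controls. LDHA had 13.41 and 13.94, against 13.76 and 13.61 in the controls, so both had overlapping groups. VEGFA and ADM, secreted factors of vessels named after their values were seen, differed more. VEGFA stood at 8.92 and 8.93 with TMEM88 shRNA, against 7.91 and 7.22 in the controls (1.36 ± 0.29, limma adjusted p = 0.0737, or 0.00435 without control 1). ADM stood at 10.65 and 9.91, against 7.98 and 9.24 in the controls (1.67 ± 0.45, limma adjusted p = 0.128, or 0.00703 without control 2). VEGFA also passed under median scaling (adjusted p = 0.0452) and with a trended and robust variance (adjusted p = 0.0451). It did not pass without background correction (limma adjusted p = 0.0607) or in the deposited log2 matrix (0.0547). The summed signal of the list was 43410 and 52130 with hairpins 691 and 94, against 40910 and 42930 in the controls, and its part in the LOX result was not tested.

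Both transmembrane collagens that were tested rose. COL13A1, a surface protein best known from the junction of nerve and muscle, stood at 10.46 and 10.15 with TMEM88 shRNA, against 8.50 and 7.87 in the controls. It was 4.36-fold higher (log2 difference 2.12 ± 0.29, SE, n = 2 per group; limma adjusted p = 0.0207). COL23A1 stood at 9.43 and 9.44 with TMEM88 shRNA, against 7.72 and 8.0 in the controls. It was 2.98-fold higher (1.58 ± 0.23, limma adjusted p = 0.0255). For both genes every array was detected, and the lower TMEM88 shRNA array lay more than 1 log2 unit above the higher control. COL25A1, of the same family, had no detected probe, and COL17A1 was named by no probe in the annotation used here.

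COL22A1 and COL8A1 were the members that fell. COL22A1, a FACIT collagen of tissue junctions such as that between muscle and tendon, stood at 4.81 and 4.65 with TMEM88 shRNA, where it was not detected, against 7.86 and 7.97 in the controls. That made COL22A1 at least 5.91-fold lower in TMEM88 shRNA cells (limma adjusted p = 0.00406). COL8A1, a short-chain network collagen of vessel walls and of the cornea's inner membrane, stood at 4.43 and 4.32 with TMEM88 shRNA, again undetected, against 6.79 and 5.86 in the controls. That made COL8A1 at least 1.96-fold lower in TMEM88 shRNA cells (limma adjusted p = 0.0421). The other COL8A1 probes, with differences of -0.042 and -0.30, were detected on no array, the controls included. The controls of COL8A1 were 0.93 apart, and its call did not hold without background correction (adjusted p = 0.102) or in the deposited log2 matrix (adjusted p = 0.0907). COL8A2, the partner chain of COL8A1, had 5.75 and 5.95 with TMEM88 shRNA and 6.11 and 6.03 in the controls, a difference of -0.22 ± 0.23 (limma adjusted p = 0.666).

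Some cardiomyocyte markers fell as well. Of 8 on the array 4 were tested, and MYL7, MYL4 and MYH6, the myosin chains of the early heart, fell. NPPB, the remaining tested marker, did not pass (0.08 ± 0.30, limma adjusted p = 0.916), and its groups overlapped. TNNI1, ACTN2 and TTN were detected on no array. MYL4 had 7.26 and 7.53 with TMEM88 shRNA, against 10.84 and 10.71 in the controls (-3.38 ± 0.24, limma adjusted p = 0.0041). MYH6 passed over both hairpins (limma adjusted p = 0.008) but not with hairpin 94 alone (adjusted p = 0.0567). The summed signal of the list was 1342 and 1109 with hairpins 691 and 94, against 5395 and 4049 in the controls. Its part in the results for COL22A1 and COL8A1 was not tested.

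Among the basement membrane collagens no member passed the limma test, 3 of 5 had an unadjusted p under 0.05, all higher, and all 5 tested differences were positive, with a median of 0.94. COL4A1 stood at 11.97 and 11.81 with TMEM88 shRNA, against 11.09 and 10.17 in the controls (1.26 ± 0.34, SE, n = 2 per group; limma adjusted p = 0.125). Its partner chain COL4A2 stood at 7.82 and 7.98, against 6.82 and 6.24 in the controls (1.37 ± 0.27, limma adjusted p = 0.0634). Neither gene's groups overlapped, and the 2 genes, whose promoter stretch is printed above, differed by similar amounts. COL4A2 passed under median scaling (adjusted p = 0.0347) and with a trended and robust variance (adjusted p = 0.0495). It did not pass without background correction (limma adjusted p = 0.0753) or in the deposited log2 matrix (0.067). Nor did it pass among genes detected on all 4 arrays (limma adjusted p = 0.0555) or with no detection filter (0.157). Leaving out each array in turn gave COL4A2 differences of 1.08 to 1.65. COL4A1 passed without control 1 alone (adjusted p = 0.00444).

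The other type IV pair lies on the X chromosome, also head to head, with COL4A6 start sites 1416 and 380 bases from that of COL4A5. COL4A6 stood at 10.22 and 10.14 with TMEM88 shRNA, against 9.46 and 9.02 in the controls (0.94 ± 0.25, limma adjusted p = 0.126, or 0.0193 without control 1). A second COL4A6 probe was detected on both TMEM88 shRNA arrays and on neither control. COL4A5 stood at 10.64 and 10.40, against 10.70 and 10.27 in the controls (0.04 ± 0.26, limma adjusted p = 0.956). The groups of COL4A6 did not overlap and those of COL4A5 did. COL18A1, whose C-terminal fragment is endostatin, had 10.34 and 10.11 with TMEM88 shRNA, against 10.12 and 9.98 in the controls (0.18 ± 0.23, limma adjusted p = 0.74). COL4A3, COL4A4 and COL15A1 had no detected probe.

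Markers of cell types that rest on a basement membrane were read beside them. Of 12 endothelium markers on the array 5 were tested and none passed (3 with an unadjusted limma p under 0.05, all higher), with a summed signal of 3580 and 2561 with hairpins 691 and 94, against 1136 and 951.6 in the controls. The tested endothelium markers had 4 positive differences and 1 negative. VWF (1.88 ± 0.34, limma adjusted p = 0.0502) and SOX18 (1.32 ± 0.28, limma adjusted p = 0.0707) were among the higher ones, as was SOX17, given below. PECAM1, CDH5, TIE1, ENG, ESAM, CLDN5 and ERG were detected on no array. Of 12 endoderm markers 10 were tested and 1 passed, CXCR4, a chemokine receptor of definitive endoderm, which rose (limma adjusted p = 0.0207, and 0.122 and 0.0536 for hairpins 691 and 94 alone). At an unadjusted limma p under 0.05 there were 8, 7 higher and 1 lower, and the median of the list was 1.22. SOX17, a factor of endoderm and of arterial endothelium, differed by 1.81 ± 0.33 (limma adjusted p = 0.0503), and LAMA1, a laminin chain of the basement membrane, by -1.30 ± 0.24 (limma adjusted p = 0.0524), and both passed without control 1 (adjusted p = 0.0155 and 0.0212) and without control 2 (adjusted p = 0.00427 and 0.0152). The endoderm sum was 4532 and 4210 with hairpins 691 and 94, against 3176 and 2197 in the controls, and AFP was detected on no array. Their part in the type IV collagen values was not tested.

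**Figure D3:**
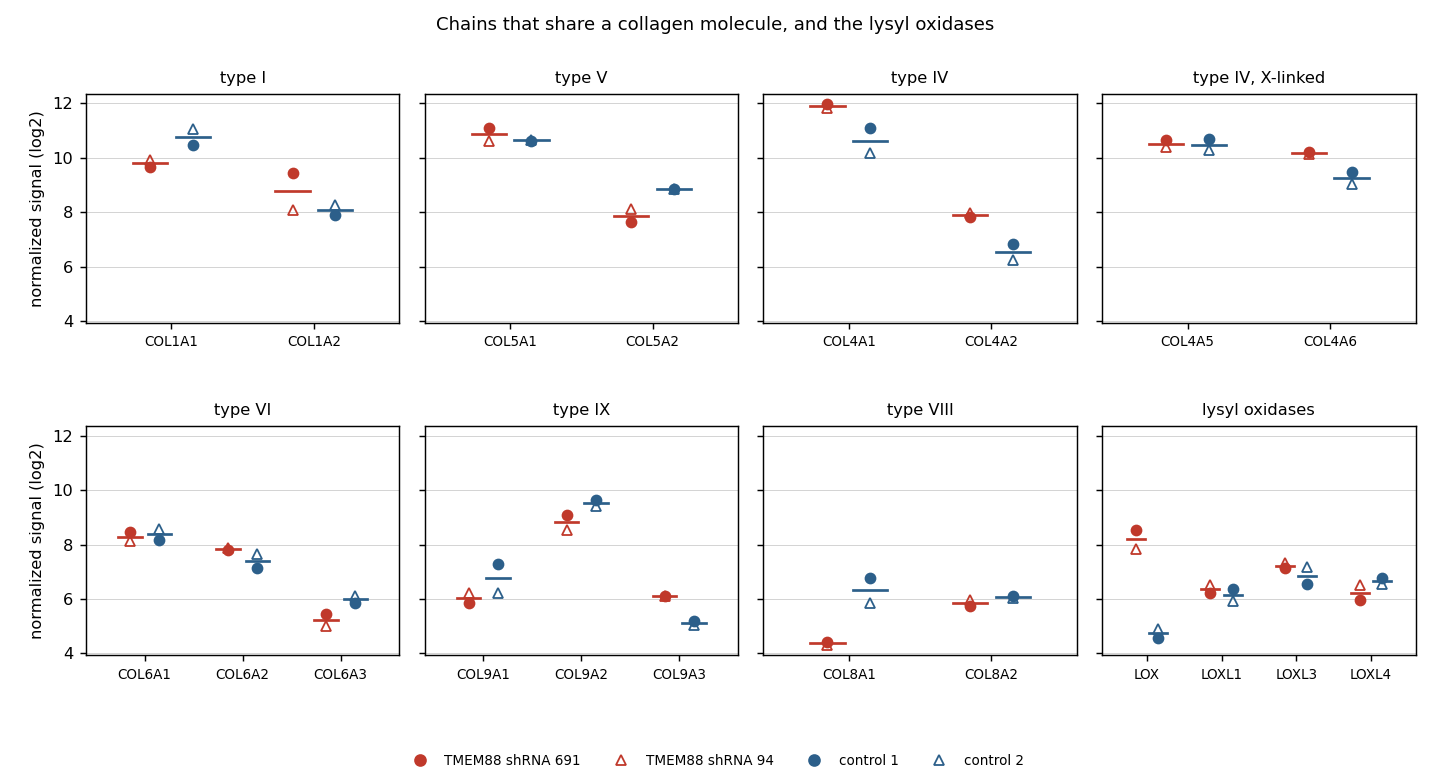
Normalized log2 level on each array for chains that assemble with each other and for the lysyl oxidases, 1 panel for each type. For each gene the TMEM88 shRNA arrays (691, 94) stand left of controls 1 and 2, and horizontal bars are group means. COL4A1 and COL4A2 are both higher on the TMEM88 shRNA arrays, COL4A6 is higher where COL4A5 overlaps, and COL8A1 is lower where the COL8A2 groups lie close. Levels of different genes come from different probes and are not comparable.

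No fibrillar collagen passed the limma test. Of 7 tested, 4 had an unadjusted p under 0.05, all lower, and 3 differences were positive and 4 negative, with a median of -0.97. COL1A1, the main chain of type I collagen, stood at 9.67 and 9.93 with TMEM88 shRNA, against 10.48 and 11.07 in the controls (-0.98 ± 0.28, SE, n = 2 per group; limma adjusted p = 0.144). Its 2 TMEM88 shRNA arrays lay below both controls, and it passed without control 1 (adjusted p = 0.0163). COL1A2, its partner chain, stood at 9.43 and 8.09, against 7.89 and 8.26 in the controls (0.68 ± 0.44, limma adjusted p = 0.468). The second COL1A2 probe had 8.72 and 7.15 with TMEM88 shRNA, against 7.78 and 8.76 in the controls, a difference of -0.34, so the probes disagreed in sign and gave COL1A2 no direction.

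COL3A1, whose protein joins type I in elastic tissues, stood at 4.91 and 4.56 with TMEM88 shRNA, where it was not detected, against 6.51 and 5.97 in the controls. It was at least 1.85-fold lower, just outside the threshold (limma adjusted p = 0.0558). COL3A1 passed under median scaling (adjusted p = 0.028). It did not pass without background correction (limma adjusted p = 0.161), in the deposited log2 matrix (0.146) or with no detection filter (0.15). Its direction held with each array left out. COL5A2, which neighbours COL3A1 on chromosome 2 and whose chain takes part in fibril nucleation, stood at 7.63 and 8.11, against 8.85 and 8.83 in the controls (-0.97 ± 0.26, limma adjusted p = 0.124). COL11A1, the fibril-nucleating chain of cartilage, was detected with hairpin 691 alone of the TMEM88 shRNA arrays and stood at 5.85 and 5.14, against 6.54 and 6.84 in the controls (-1.19 ± 0.30, limma adjusted p = 0.113, or 0.03 without control 1). All 3 genes had both TMEM88 shRNA arrays below both controls. Groups lay apart, in either direction, in 50.2% of all genes tested.

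The remaining fibrillar genes overlapped between groups. COL5A1 stood at 11.10 and 10.62 with TMEM88 shRNA, against 10.60 and 10.67 in the controls (0.23 ± 0.26, limma adjusted p = 0.689). COL2A1, the collagen of cartilage and notochord, stood at 10.27 and 10.99, against 11.43 and 9.73 in the controls (0.05 ± 0.54, limma adjusted p = 0.972). The COL2A1 controls were thus farther apart than the groups. COL5A3, COL11A2, COL24A1 and COL27A1 were not tested, and of these COL11A2 and COL24A1 had a probe detected on 1 control array.

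Of 13 fibroblast and mesenchyme markers on the array 6 were tested, and 2 fell, LUM and PDGFRA, with 4 at an unadjusted limma p under 0.05, 1 higher and 3 lower. LUM, a small proteoglycan that coats collagen fibrils, was detected on neither TMEM88 shRNA array and its level there was at least 3.89-fold below that of the controls (limma adjusted p = 0.00991). PDGFRA, a growth factor receptor of mesenchyme and of cardiac mesoderm, stood at 9.68 and 9.82 with TMEM88 shRNA, against 11.20 and 11.08 in the controls (-1.39 ± 0.23, limma adjusted p = 0.0347, and 0.214 and 0.305 for hairpins 691 and 94 alone). TWIST1 and PDGFRB differed the other way, TWIST1 by 1.02 ± 0.29 (limma adjusted p = 0.14) and PDGFRB by 0.82 ± 0.48 (limma adjusted p = 0.424). The TWIST1 difference was 0.67 without control 1 and 1.37 without control 2. For PDGFRB it was 1.57 without control 1 and 0.063 without control 2. The summed signal of the list was 4869 and 4682 with hairpins 691 and 94, against 4990 and 4831 in the controls. DCN, POSTN, DDR2, WT1, TBX18 and FAP were detected on no array. Of the notochord and cartilage markers 2 of 10 were tested, neither passed (1 with an unadjusted limma p under 0.05, lower), the sum was 118.1 and 147.5 with hairpins 691 and 94 against 142.7 and 158.6 in the controls, and TBXT, NOG, SHH and ACAN were detected on none. The part of these lists in the fibrillar collagen values was not tested.

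The type VI chains, which make the filaments around cells, did not pass. COL6A1 stood at 8.46 and 8.12 with TMEM88 shRNA, against 8.16 and 8.59 in the controls (-0.08 ± 0.27, limma adjusted p = 0.904). COL6A2, its neighbour on chromosome 21, stood at 7.79 and 7.87, against 7.13 and 7.65 in the controls (0.44 ± 0.26, limma adjusted p = 0.436). COL6A3, detected with hairpin 691 alone of the TMEM88 shRNA arrays, stood at 5.45 and 5.01, against 5.84 and 6.13 in the controls (-0.75 ± 0.26, limma adjusted p = 0.21). Their differences lay on either side of 0. COL6A5 had no detected probe, and COL6A6 had one detected on 1 control array.

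Apart from COL22A1, no FACIT collagen passed. The type IX chains, which decorate cartilage fibrils, split by chain. COL9A3 was detected with both TMEM88 hairpins and in neither control, at 6.11 and 6.12 against 5.18 and 5.04 in the controls, at least 1.56-fold higher (limma adjusted p = 0.084, or 0.0237 without control 1). COL9A2 stood at 9.10 and 8.52 with TMEM88 shRNA, against 9.65 and 9.42 in the controls (-0.73 ± 0.28, SE, n = 2 per group; limma adjusted p = 0.239), with both TMEM88 shRNA arrays below both controls. COL9A1 stood at 5.84 and 6.23, against 7.30 and 6.22 in the controls (-0.73 ± 0.38, limma adjusted p = 0.372), where control 1 alone was high. The COL9A1 difference was -0.19 without control 1 and -1.26 without control 2. COL16A1 stood at 7.51 and 7.18, against 6.97 and 7.30 in the controls (0.21 ± 0.25, limma adjusted p = 0.711), and its groups overlapped. COL12A1, COL14A1, COL19A1, COL20A1 and COL21A1 had no detected probe.

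Among the network, anchoring and other collagens, COL26A1 stood at 8.66 and 8.87 with TMEM88 shRNA, against 8.08 and 7.11 in the controls (1.17 ± 0.35, SE, n = 2 per group; limma adjusted p = 0.153). Both TMEM88 shRNA arrays were higher, the controls were 0.97 apart, and the gene passed without control 1 (adjusted p = 0.00544). COL7A1, the anchoring fibril collagen beneath skin, stood at 6.81 and 6.11, against 6.48 and 8.07 in the controls (-0.81 ± 0.52, limma adjusted p = 0.464), where control 2 alone was high. The COL7A1 difference was -1.61 without control 1 and -0.022 without control 2. COL10A1, the collagen of cartilage about to ossify, and COL28A1 had no detected probe.

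**Figure D4:**
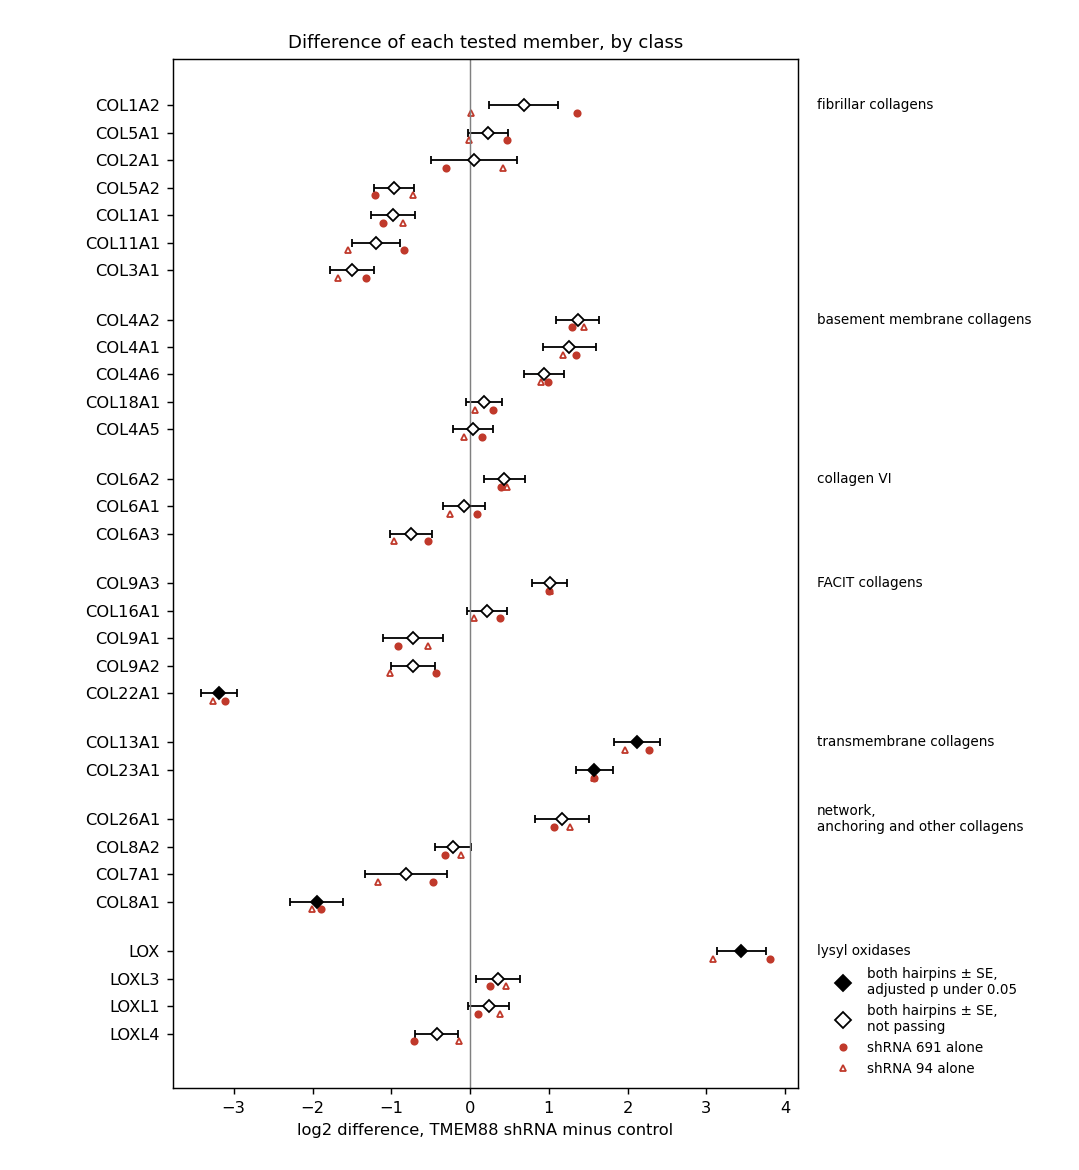
Log2 difference of TMEM88 shRNA minus control for the 30 tested members by class, with standard errors as bars (n = 2 arrays per group) and the hairpins 691 and 94, each minus the mean of the controls, as small points below. Filled markers passed the adjusted test: LOX, COL13A1 and COL23A1 to the right of 0, and COL22A1 and COL8A1 to the left. For LOX, COL9A3, COL3A1, COL8A1 and COL22A1 one group was not detected, so the plotted size of these differences is no measured fold.

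The hairpins were also set against the controls singly. The 2 comparisons share both control arrays, and each rests on 1 array that is assumed to vary like the controls. With hairpin 691, 0.867% of all genes passed and 2 of 30 members, LOX (limma adjusted p = 0.0088) and COL22A1 (limma adjusted p = 0.0154). With hairpin 94, 0.482% of all genes passed and again 2 members, LOX (limma adjusted p = 0.0239) and COL22A1 (limma adjusted p = 0.0196). COL13A1 gave 2.28 ± 0.43 with hairpin 691 (limma adjusted p = 0.0594) and 1.97 ± 0.43 with hairpin 94 (limma adjusted p = 0.125). COL23A1 gave 1.57 and 1.58 (limma adjusted p = 0.179 and 0.204), and neither hairpin alone passed for COL8A1 (limma adjusted p = 0.176 and 0.167).

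Hairpin 691 minus hairpin 94 was tested in the same fit. No gene passed limma's adjusted test (0% of 10377), with 98 genes and 1 member at an unadjusted p under 0.05. The member with the widest gap was COL1A2, 1.35 higher with hairpin 691 (limma adjusted p = 1). A p that misses the threshold does not show that the hairpins act alike, and TMEM88 itself differed more between them than any member.

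The genes that make, process and bind collagen were read from the same fit by list. None of 18 tested enzymes and chaperones of the endoplasmic reticulum, of 23 on the array, passed limma's test (3 with an unadjusted p under 0.05, 2 higher and 1 lower), and their median difference was 0.11. The brightest were P3H2, a prolyl hydroxylase, at 11.81 and 11.31 with TMEM88 shRNA against 11.17 and 12.02 in the controls, and SERPINH1, the collagen chaperone, at 11.46 and 11.45 against 11.35 and 11.78 in the controls. Both had overlapping groups. PLOD2, the lysyl hydroxylase whose product lysyl oxidases then oxidise, was added after its values were seen: it stood at 9.55 and 9.89 with TMEM88 shRNA, against 10.63 and 10.97 in the controls (-1.08 ± 0.26, limma adjusted p = 0.099). PLOD2 passed without control 1 (adjusted p = 0.0199) and with a trended and robust variance (adjusted p = 0.0415). Of the procollagen proteinases and enhancers, 5 of 9 were tested and none passed, nor had any an unadjusted limma p under 0.05. Their brightest were PCOLCE, which speeds the cutting of procollagen (0.29 ± 0.24, limma adjusted p = 0.587), and PCOLCE2 (0.58 ± 0.35, limma adjusted p = 0.439). The PCOLCE2 difference was 1.08 without control 1 and 0.075 without control 2.

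Of the collagenases, gelatinases and inhibitors 8 of 14 were tested, with a median of -0.43, and 1 passed. It was MMP16, a membrane-bound matrix metalloproteinase, which stood at 5.65 and 5.40 with TMEM88 shRNA, against 7.40 and 7.37 in the controls, and fell (-1.86 ± 0.23, limma adjusted p = 0.0159), though not in the test of either hairpin alone (adjusted p = 0.118 for 691 and 0.0821 for 94). Of the fibril and basement membrane partners 14 of 21 were tested, with a median of 0.11, and 2 passed, LUM and TNC, both lower. TNC, a matrix glycoprotein that is made where tissues are being remodelled, stood at 7.23 and 7.08 with TMEM88 shRNA, against 10.24 and 9.78 in the controls (-2.86 ± 0.26, limma adjusted p = 0.00571). MMP16 and TNC were detected on all 4 arrays, with clear gaps between the groups.

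Neither the collagen receptors (5 of 10 tested, median 0.14) nor the TGF-beta genes (8 of 13 tested, median 0.32) held a gene that passed limma's test. At an unadjusted limma p under 0.05 there were 2 receptors, both higher, and 3 TGF-beta genes, 2 higher and 1 lower. The 2 higher TGF-beta genes were SMAD7 (0.96 ± 0.23, limma adjusted p = 0.1) and TGFBR3 (0.75 ± 0.27, limma adjusted p = 0.226). In all, 6 TGF-beta differences were positive and 2 negative. The brightest receptors were ITGB1, the integrin beta chain of collagen receptors, at 11.45 and 11.66 with TMEM88 shRNA against 12.06 and 11.77 in the controls (-0.36 ± 0.24, limma adjusted p = 0.487), and LAIR1, a leukocyte receptor for collagen (0.14 ± 0.22, limma adjusted p = 0.79). The LAIR1 probe gave signals of 25032.8 and 27293.4 with hairpins 691 and 94, against 23508.2 and 21047 in the controls, far above most probes, and whether it measures LAIR1 alone was not checked. CCN2, a matrix protein induced by TGF-beta, stood at 10.84 and 10.88 with TMEM88 shRNA, against 10.94 and 9.14 in the controls (0.82 ± 0.53, limma adjusted p = 0.475). Its controls were far apart: the CCN2 difference was 1.72 without control 1 (adjusted p = 0.00414) and -0.076 without control 2. LTBP4, which binds latent TGF-beta, had 8.81 and 8.51, against 8.08 and 8.32 in the controls (0.45 ± 0.24, limma adjusted p = 0.387). TGFB2, a ligand of the heart's cushions named here after its values were seen, was detected in the controls only and was at least 1.60-fold lower with TMEM88 shRNA, just outside the threshold (limma adjusted p = 0.0505). TGFB2 passed under median scaling (adjusted p = 0.034), with the mean of probes (adjusted p = 0.0472) and with a trended and robust variance (adjusted p = 0.0495). It did not pass without background correction (limma adjusted p = 0.15), in the deposited matrix (0.136) or with no detection filter (0.137). Its direction held with each array left out.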

How the data were processed

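The authors deposited a table with, per the file headers, a signal intensity and a detection p-value for each of 47322 probes on 4 arrays, and a matrix of log2 values of the same arrays. The deposited intensity values are not normalized, since their medians differ. Set against the intensities, the deposited log2 values lay within 0.158 of their quantile normalization. Per the submitters' processing notes, lumi and limma 3.12.3 were used, in roles that are not given.

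From these intensities, limma's neqc (limma 3.58.1, R 4.3.3) subtracted background, with negative controls inferred from the detection p-values, added an offset of 16 and made the arrays' quantiles equal. Of the probes, 30113 had 1 gene symbol in the platform annotation, 8 several and 17201 none, and 30074 matched the RefSeq gene table of GRCh38.p14, used for names and neighbours. A gene's brightest probe by mean stood for it, out of the probes detected (p under 0.01) on at least 2 arrays. Of the tested members 12 had several probes and 5 a second detected one. The test was limma's lmFit with eBayes, 2-sided, adjusted over 10377 genes by the Benjamini-Hochberg method, at a threshold of 0.05. There were 2 residual and 4.84 prior degrees of freedom, and 1 residual degree in the fit of single hairpins and in fits that left out 1 array. The steps were tested on simulated data.

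The members, classes, gene lists and motifs were chosen with earlier results of these data known. Members with 4 array values are those that passed, those with a difference of at least 1 and the 3 brightest of a class, and most others are given too. From each pathway list the genes that passed are named (at most 4), or the 2 brightest, and marker lists are given by counts and sums with the markers that passed or were undetected. The labels name no slide or batch, and each title holds a code, not explained, that no other title shares. Alternatives covered background correction, scaling, the deposited matrix, the detection filter, probes per gene, the variance model and leaving out each array. Promoter windows are RefSeq's, on GRCh38.p14. COL22A1 was given no sequence. Figures were drawn with matplotlib 3.10.9.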

Additional observations from a re-analysis of the deposited data

How the results depend on the processing

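For the 30 tested members 323 values were computed under alternatives, of which 289 kept their direction and side of the threshold, 12 lost and 15 gained the call, and 7 changed sign. All 7 came from leaving out an array, and the 203 values under the 7 other alternatives kept their direction. Leaving out each array in turn gave COL2A1 -0.79 to 0.90, COL4A5 -0.18 to 0.25, COL5A1 -0.012 to 0.47 and COL6A1 -0.30 to 0.13. For 36 other genes named, 322 of 389 values were unchanged in direction and call, and 11 changed sign: LDHA (0.13) and EMILIN1 (0.0040) under median scaling, and within the same leave-one-out ranges LDHA (-0.28 to 0.26), ENO1 (-0.015 to 0.15), P3H2 (-0.46 to 0.39), SERPINH1 (-0.32 to 0.11), EMILIN1 (-0.28 to 0.19) and CCN2 (-0.076 to 1.72). COL13A1 ranged from 1.78 to 2.44 and COL23A1 from 1.23 to 1.72, and each passed in 8 of 11 alternatives. LOX, COL22A1 and COL8A1, undetected in one group, kept their direction and passed in 9, 10 and 5 of 10, LOX failing with no filter (adjusted p = 0.0546).

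Of the 205 genes (99 higher, 106 lower) and 5 members (3 higher, 2 lower) that passed, leaving out each array gave 50 to 1453 genes (15 to 760 higher, 35 to 693 lower) and 2 to 14 members (1 to 8 higher, 1 to 6 lower). The high ends came without control 1, in a fit with 1 control array left. Leaving out a TMEM88 array gives the test of the other hairpin. Median scaling passed 339 genes (176 higher, 163 lower), with 234 and 4 members for hairpin 691 and 194 and 4 members for hairpin 94, against 90 and 50 genes and 2 members each in the main setting. A trended and robust variance passed 309 genes (151 higher) and 103 for hairpin 94. Averaging a gene's probes gave 171 genes for hairpin 691, and 147 with 4 members for hairpin 94. Without background correction 1 member was lower, and hairpin 691 gave 19 genes and 0 members and hairpin 94 gave 5 and 0. The deposited matrix gave 1 lower member, 46 genes and 1 member for hairpin 691, and 26 and 0 for hairpin 94. With genes detected on all 4 arrays 2 members passed, 0 of them lower. With genes detected on all 4 arrays, hairpin 691 gave 32 genes and 0 members and hairpin 94 gave 3 and 0. That setting tested 8822 genes and left out LOX, COL22A1 and COL8A1, each detected in 1 group only. With all 20046 genes and no filter 19 passed (6 higher, 13 lower), with 1 member (0 higher, 1 lower) and 0 genes and 0 members for either hairpin. The causes of these shifts were not tested. Genes near background, such as COL8A1 and COL3A1, depend on the background correction. No paired analysis was possible because no code in the titles is shared between groups.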

Other observations

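Genes with a collagen-like stretch but no collagen symbol were listed after the members' values were seen, so their values are a description. Of 31 on the array 13 were tested, with a median log2 difference of -0.15, and 1 passed the limma test. COLEC11, a collectin that binds sugars and guides migrating cells in the embryo, stood at 6.72 and 6.91 with TMEM88 shRNA, against 8.63 and 8.73 in the controls, and fell (-1.86 ± 0.23, SE, n = 2 per group; limma adjusted p = 0.0155), though not with either hairpin alone (adjusted p = 0.0762 for 691 and 0.129 for 94). EMILIN2, a glycoprotein of elastic fibres, stood at 8.74 and 8.41 with TMEM88 shRNA, against 9.72 and 10.05 in the controls (-1.31 ± 0.26, limma adjusted p = 0.0606, or 0.00991 without control 1 and 0.0449 without control 2). EMILIN3 was detected with both TMEM88 hairpins and in neither control and was at least 1.27-fold higher (limma adjusted p = 0.136, or 0.0411 without control 1). EMILIN1 stood at 5.00 and 5.37 with TMEM88 shRNA, against 5.46 and 4.99 in the controls, and its groups overlapped.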
